A study of Homo sapiens with 24 samples.

Results

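Described here are 9 of the 22 tRNA genes of the human mitochondrial genome, TRNL1, TRNQ, TRNM, TRNA, TRNN, TRNY, TRNS1, TRNE and TRNP, in PANC1 cells treated with DMSO, CID661578 or cercosporamide. They were selected on having at least 1 count in each of the 24 libraries, which 9 of the 22 genes met, among 12058 of 54583 genes in the whole table. The genes were proposed with their responses to the compounds in these libraries already known, so their changes with both compounds are a description and not independent evidence. No p-value is given for a single one of these changes, and the counts of the 9 genes past a threshold of a test only describe them, beside the share of all genes past it. PANC1 is an established human pancreatic ductal adenocarcinoma line. Cells were grown on 12 plates, 4 per treatment. They received DMSO as the vehicle, CID661578 at 40 µM or cercosporamide at 5 µM, and were collected after 6 h. The labels describe both compounds as inhibitors of the kinase MNK2. The paper reports that cercosporamide inhibited the kinase activity of MNK2 in vitro, whereas CID661578 left it unchanged. From each plate, total cytosolic RNA and RNA bound to more than 3 ribosomes (polysome RNA) were sequenced by Smart-seq2 from 10 ng of RNA. The groups therefore are DMSO total, CID661578 total, cercosporamide total and the same 3 treatments in polysome RNA, with 4 libraries in each. The doses of the compounds differ, so their values stand side by side and do not rank the compounds, and both are compared with the same DMSO libraries. Fewer cells and less RNA per cell cannot be told apart in these libraries.

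Reads on genes numbered 9268041 to 12184749 in 23 of the libraries, and 1592459 in the polysome library of cercosporamide replicate 4. That library holds 1 to 8 reads for each of the 9 genes, and the main changes of the 9 genes with cercosporamide in polysome RNA are also given without its plate. The epithelial keratins KRT8, KRT18 and KRT19 had medians of 6484, 3085 and 1904 CPM (the count scaled to the library total) over the 24 libraries, while KRT7, SOX9 and EPCAM of the same list had 14.1, 17.3 and 6.69 CPM, and VIM, a mesenchymal filament gene that this line is known to carry, 1266 CPM. CDH1, which codes for E-cadherin, was at 0 in 13 libraries and reached at most 0.902 CPM. Of 8 markers of other cells, PTPRC, CD3E, INS and PRSS1 were at 0 in all 24 libraries, and the most abundant was COL1A1 with a median of 2.58 CPM. The 8 markers summed to 0.746 to 7.40 CPM.

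Mitochondrial DNA is transcribed from both strands into long precursors in which tRNAs lie between the rRNAs and mRNAs. RNase P, made of TRMT10C, HSD17B10 and PRORP, cuts at the 5′ end of each tRNA and ELAC2 at the 3′ end, which at the same time frees the neighbouring mRNAs, and TRNT1 then adds the CCA tail. The mature tRNAs read codons on mitochondrial ribosomes, which make subunits of the respiratory chain and ATP synthase, and are not known to be translated themselves.

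The sequences of 4 of the genes are shown because their counts moved in opposite directions (TRNP and TRNE), fell furthest in polysome RNA (TRNA), or had nearly the same counts as an annotated nuclear gene that holds their sequence (TRNS1). Each is the strand of the tRNA, 5′ to 3′, from the hg38 mitochondrial sequence, with the anticodon in capitals. All 4 lie on the minus strand, at chrM:15956-16023, chrM:14674-14742, chrM:5587-5655 and chrM:7446-7514 in the order shown, and each is annotated as a whole tRNA gene.
TRNP: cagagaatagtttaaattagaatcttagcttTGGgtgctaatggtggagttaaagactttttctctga
TRNE: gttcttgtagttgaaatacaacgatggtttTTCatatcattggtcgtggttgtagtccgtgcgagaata
TRNA: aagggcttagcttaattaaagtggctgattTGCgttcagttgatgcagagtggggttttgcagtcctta
TRNS1: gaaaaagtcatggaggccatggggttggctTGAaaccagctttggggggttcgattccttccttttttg
The anticodon stem had 5 of 5 base pairs, G-U pairs included, in each of these 4. TRNP had the lowest share of G and C among the 9 genes, 33.8%, and TRNS1 the highest, 49.3%.

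The 9 genes are 66 to 75 bases long and mostly adjoin another gene, which limits what could be counted. Of the 9, 7 lie on the minus strand, compared with 8 of all 22 tRNA genes and with 1 of the 13 mRNAs, ND6. By the default settings of featureCounts, counting did not use strand, so reads from TRNP or TRNE cannot be told apart from reads of the opposite transcript over the same bases. By the same defaults, reads that touched more than 1 gene were left out, so that a read of 50 bases could take 20 to 28 positions for 7 of the genes, 56 for TRNN, which borders an unannotated gap of 31 bases, and 70 for TRNP, which borders the control region. Counts of those 7 genes thus come from reads almost wholly inside the tRNA gene. A TRNN count may extend into the gap and a TRNP count into the control region. A read inside a tRNA gene can come from a mature tRNA or from a precursor, and the counts do not tell these apart. Changes in counts are therefore not measures of mature tRNA alone.

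With DMSO, TRNP had the highest level of the 9 in total RNA per kilobase of gene length, while per countable read position TRNP and TRNQ were nearly equal. Per kilobase it had 4062 ± 1804 CPM (SD, n = 4), followed by TRNQ with 1170 ± 598, TRNA with 751 ± 410 and TRNN with 654 ± 401 on the same scale. The lowest TRNP library, at 2354, was above the highest TRNQ library, at 1788. TRNQ, TRNA and TRNN overlapped each other, and TRNL1, TRNS1, TRNE, TRNY and TRNM followed with means of 282, 249, 220, 209 and 171 CPM per kilobase and overlapping libraries. Per position that a read of 50 bases could take, TRNQ had a mean of 4.01 CPM and TRNP 3.95. No spread was taken on this scale, so these means do not rank TRNQ and TRNP. TRNA followed with 1.85, TRNN with 0.853 and TRNL1 with 0.756. For comparison, CYTB, the mRNA nearest to TRNP, had 6362 ± 2408 CPM per kilobase. Together the 9 genes took 0.0539% ± 0.0193 of the reads in DMSO total RNA and the 13 mitochondrial mRNAs 4.00% ± 0.96 (SD, n = 4). TRNP alone made up 51.1% ± 15.1 of the reads of the 9 genes.

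**Figure D1:**
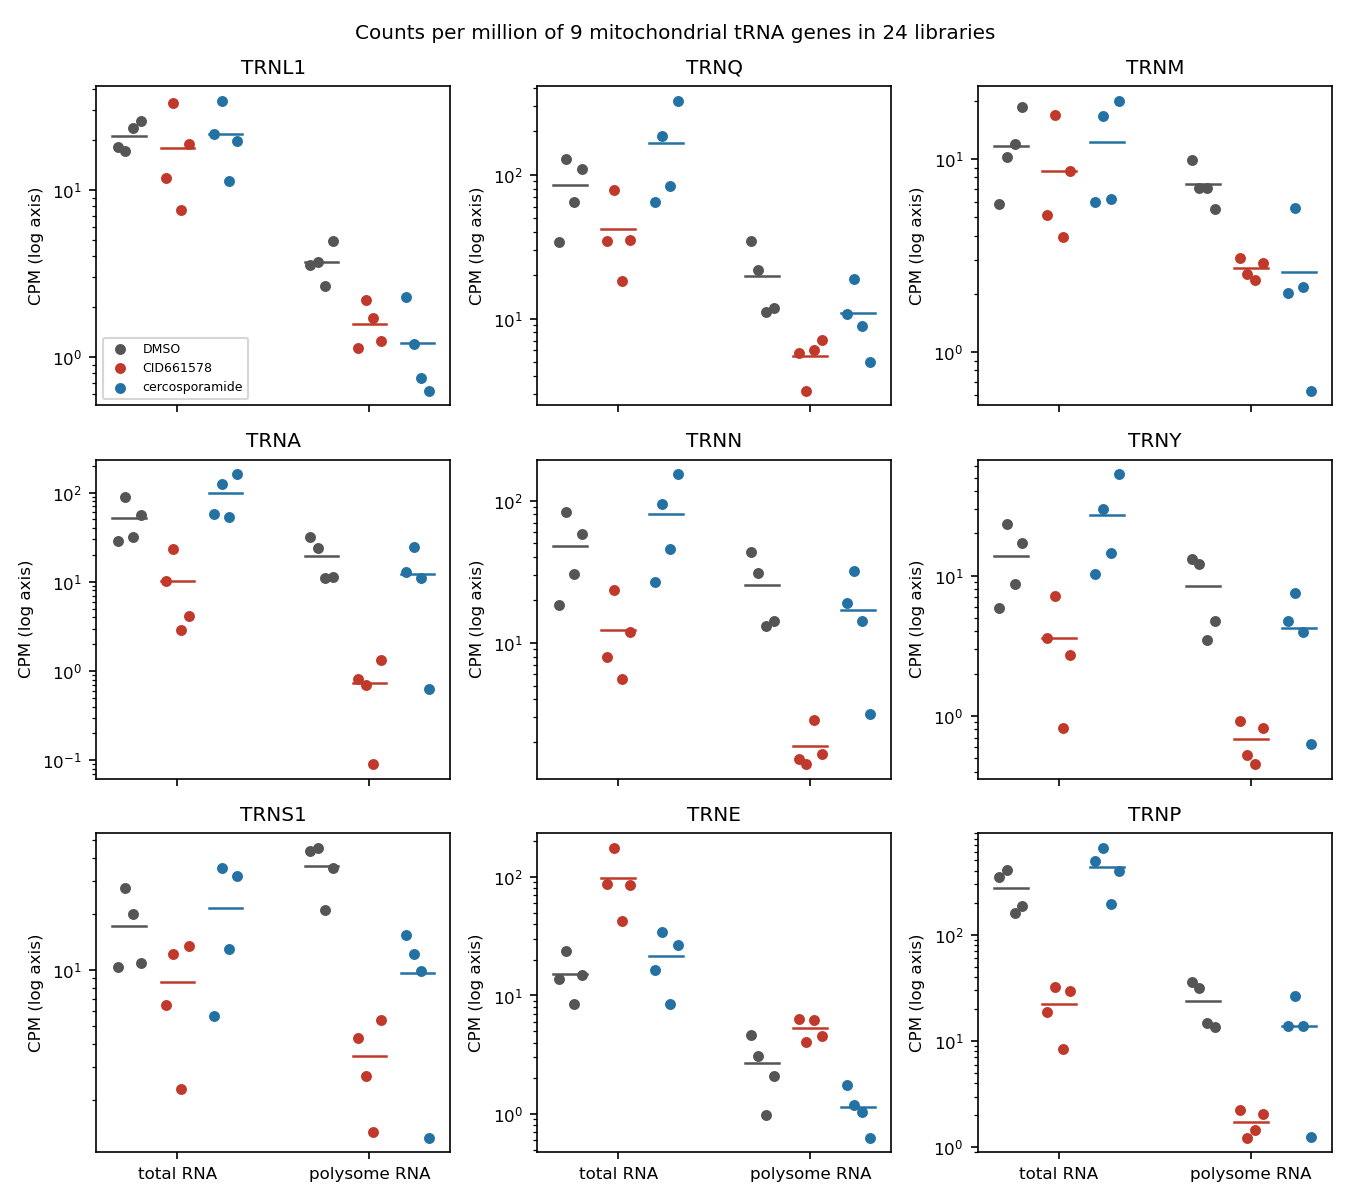
CPM (log axis) of the 9 genes in total RNA (left of each panel) and polysome RNA (right) with DMSO, CID661578 and cercosporamide; each point is a library and each bar the mean of 4. In total RNA the 4 CID661578 libraries of TRNP lie at 8.37 to 31.9 CPM, below all DMSO libraries, and those of TRNE at 42.3 to 176.9 CPM, above all DMSO libraries.

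Without a compound, the tRNA genes were mostly poorer in polysome RNA than in total RNA, and TRNS1 was richer. TRNP, the tRNA gene for proline, had 351, 409, 160 and 185 CPM in the 4 DMSO total libraries and 36.3, 31.3, 14.8 and 13.6 CPM in the matching polysome libraries. Its polysome level was 13.3-fold lower (log2 change −3.73 ± 0.19 SE by edgeR's quasi-likelihood fit over all 12058 genes), and lower on 4 of 4 plates. TRNS1, a tRNA gene for serine, had 109, 296, 232 and 120 reads in total RNA and 400, 473, 213 and 390 in polysome RNA. Scaled to the library totals, TRNS1 was higher in polysome RNA on 4 of 4 plates, by a log2 change of 0.94 ± 0.24 SE (edgeR). TRNP had the lowest and TRNS1 the highest of the 9 changes. The genes were chosen with these data known, so no p-value is given for either. The COX1 mRNA, which adjoins TRNS1 and is known to keep the complement of TRNS1 as its 3′ end, had a log2 change of −0.0012 ± 0.16 SE. In all, 8 of the 9 genes were called lower in polysome RNA (adjusted p under 0.15 and a change over 1.2-fold), as were 29.0% of all genes tested, and 1 was called higher, as were 29.8%. The median log2 change of the 9 was −1.60, that of the 13 mRNAs −1.95 and that of all genes 0.027. Without replicate 4, 6 were called lower, and 6437 of 13366 genes were called in either direction. In replicate 1, TRNM, TRNA, TRNN and TRNY were higher in polysome than in total RNA, with log2 ratios of 0.14 to 1.25, and TRNQ was nearly equal, whereas all 5 were lower in the other 3 replicates.

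CID661578 was followed by opposite changes of TRNP and TRNE in total RNA. TRNP had 3698, 4422, 1857 and 2024 reads in the DMSO libraries and 207, 333, 102 and 305 in the CID661578 libraries. TRNE, the tRNA gene for glutamate, had 145, 255, 98 and 163 reads with DMSO and 964, 1844, 515 and 879 with CID661578. Neither gene's groups overlapped, in counts or in CPM, and each gene moved in the same direction in 4 of 4 replicates. TRNP was 12.4-fold lower (log2 change −3.63 ± 0.27 SE) and TRNE 6.29-fold higher (log2 change 2.65 ± 0.22 SE). TRNE made up 2.77% ± 0.28 of the reads of the 9 genes in DMSO total RNA and 44.3% ± 2.8 in CID661578 total RNA (SD, n = 4), while TRNP made up 10.3% ± 2.7 in the latter. TRNE and TRNP flank CYTB, with TRNT between CYTB and TRNP. CYTB itself had a log2 change of −0.63 ± 0.29 SE in total RNA and was not called.

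The 3 genes TRNA, TRNN and TRNY, for alanine, asparagine and tyrosine, lie between ND2 and COX1, with TRNC between TRNN and TRNY, and were all lower in total RNA. TRNA had 28.8, 90.0, 32.0 and 56.5 CPM with DMSO and 10.3, 23.1, 2.87 and 4.16 CPM with CID661578. TRNN had 18.3, 83.6, 30.4 and 58.6 CPM with DMSO and 7.99, 23.6, 5.58 and 11.9 CPM with CID661578. TRNA did not overlap between the groups, whereas the highest CID661578 library of TRNN was above the lowest DMSO library. TRNY also overlapped, with 7.20 CPM in its highest CID661578 library and 5.89 CPM in its lowest DMSO library. The log2 changes were −2.45 ± 0.34 SE for TRNA, −1.86 ± 0.26 for TRNN and −1.90 ± 0.38 for TRNY. Over the 24 libraries the log2 CPM of these 3 had Pearson correlations of 0.96 to 0.98 with each other; the libraries share treatments and fractions, so this is a description. TRNQ, TRNS1, TRNM and TRNL1 had log2 changes of −0.93, −1.10, −0.49 and −0.41 and were not called by edgeR, whereas DESeq2 called TRNQ lower. In all, 4 of the 9 were called lower in total RNA with CID661578, beside 0.166% of all genes tested, and 1 was called higher, beside 0.307%. At an unadjusted p under 0.05, edgeR gave 6 lower and 1 higher, beside 3.75% and 3.45% of all genes, and DESeq2 called 5 lower, beside 0.498% of all genes, and 1 higher, beside 0.838%. Without the replicate block in the fit, 1 was called lower, and without replicate 4, 3 were. Over all genes and both directions, these fits called 5 of 12058 and 12 of 13366.

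In polysome RNA, 8 of the 9 genes were called lower with CID661578, beside 3.93% of all genes tested, and TRNE was called higher, beside 6.34%. TRNA had 31.7, 23.9, 10.9 and 11.4 CPM with DMSO and 0.819, 0.700, 0.0902 and 1.34 CPM with CID661578, where a single read made up the third value. TRNS1 had 400, 473, 213 and 390 reads with DMSO and 42, 31, 15 and 52 with CID661578. Neither gene's groups overlapped in polysome RNA. TRNA was 25.4-fold lower (log2 change −4.67 ± 0.49 SE) and TRNS1 10.7-fold lower (log2 change −3.42 ± 0.34 SE). The log2 changes of TRNP, TRNN and TRNY were −3.68, −3.63 and −3.49, and those of TRNQ, TRNM and TRNL1 −1.71, −1.44 and −1.22. Without replicate 1 or without replicate 4, 7 were called lower. Calls over all genes, in both directions, fell from 1239 of 12058 to 440 of 12153 and 521 of 13366. TRNE had 4.64, 3.06, 0.985 and 2.08 CPM with DMSO and 6.35, 4.02, 6.23 and 4.54 CPM with CID661578, and these libraries overlapped as groups and were higher with CID661578 in 4 of 4 replicates. Its call (log2 change 1.06 ± 0.34 SE) was lost at adjusted p under 0.05, without the replicate block, and without replicate 1, 3 or 4. In each of these settings 0 of the 9 were called higher. All 13 mitochondrial mRNAs were called lower in the same libraries, with a median log2 change of −2.57 against −3.42 for the 9 tRNA genes.

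**Figure D2:**
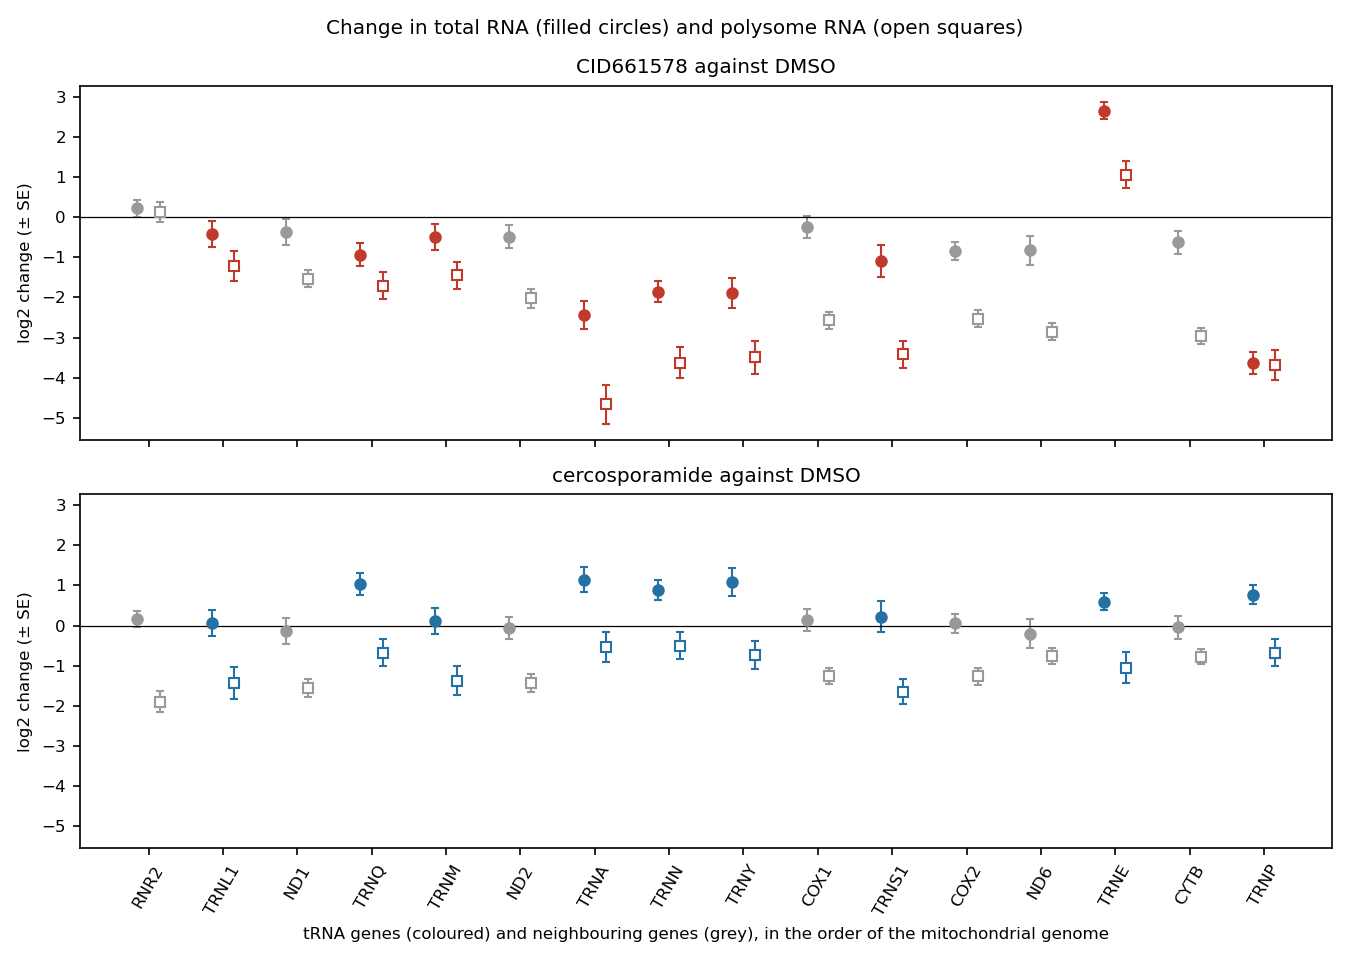
Log2 change with CID661578 (top) and cercosporamide (bottom) against DMSO, with standard errors, for the 9 tRNA genes (coloured) and the neighbouring genes (grey) in genome order; filled circles are total RNA and open squares polysome RNA. With CID661578 TRNE lies above 0 at 2.65 and 1.06, and TRNP lies at −3.63 and −3.68, while CYTB lies at −0.63 and −2.97.

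Relative to total RNA, the change in polysome RNA (translational efficiency, TE) differed between the genes. For a tRNA gene TE stands only for this relative change of counts. Whether the RNA counted in the polysome libraries was bound to ribosomes was not tested. TRNP had the same fall in both fractions and a TE change of −0.043 ± 0.32 SE (log2) with CID661578. TRNS1 had the lowest value of the 9, −2.46 ± 0.50, and on the plates its log2 ratio of polysome to total CPM was 2.06, 0.72, 0.069 and 1.69 with DMSO and −0.59, −2.17, −0.76 and −1.33 with CID661578. TRNE, which rose in total RNA more than in polysome RNA, had a TE change of −1.61 ± 0.35. TRNA had −2.29 ± 0.64 and was not called. The changes of TRNS1 and TRNE were the 2 of 9 called lower, beside 0.199% of all genes tested, and 0 of 9 were called higher, beside 0.00829%. At an unadjusted p under 0.05, edgeR gave 7 of the 9 lower and 0 higher, beside 3.95% and 4.92% of all genes, and DESeq2 called 1 lower, beside 0.249% of all genes, and 0 higher, beside 0.199%. By edgeR, 0 of the 9 were called lower without the replicate block and 0 without replicate 2. There were 3 without replicate 3 or without replicate 4, and 5 with no filter on low counts. Over all genes and both directions, these fits called 21 of 12058, 12 of 12154, 28 of 12167, 29 of 13366 and 102 of 28470. Of the 24 genes called lower in TE with CID661578, 20 were mitochondrial genes or shared their sequence, namely these 2 tRNA genes, 10 mRNAs, 7 nuclear copies and MIR12136.

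**Figure D3:**
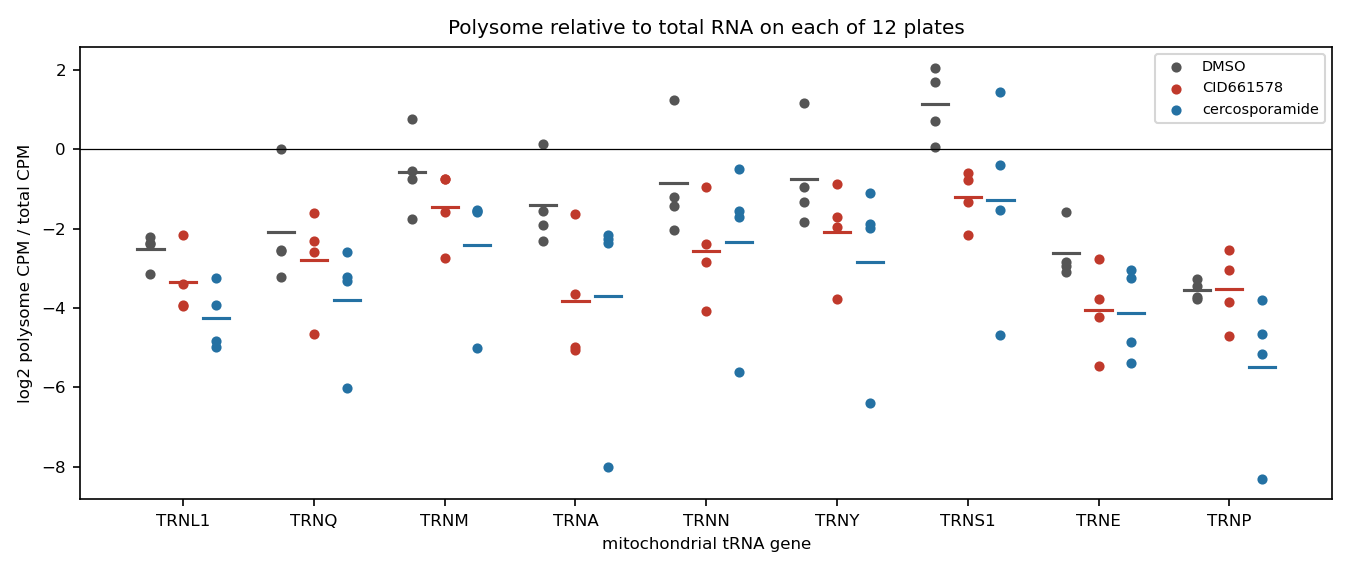
Log2 ratio of polysome CPM to total CPM of each of the 9 genes on the 12 plates; points are plates and bars the means of 4. TRNS1 is the only one of the 9 with all 4 DMSO plates above 0, and its CID661578 plates lie between −2.17 and −0.59.

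Ratios of a tRNA gene to a neighbouring mRNA in the same library do not depend on the normalization. They were taken as log2 of the counts plus 0.5, over 17 pairs of a tRNA gene and a gene on either side (for TRNL1 the left neighbour is the rRNA RNR2), with no test. TRNP over CYTB was −4.38, −3.04, −5.81 and −5.66 in DMSO total RNA and −8.12, −7.29, −8.32 and −7.59 in CID661578 total RNA, which did not overlap. In polysome RNA the same ratio was −6.57, −6.57, −7.55 and −7.90 with DMSO and −7.87, −7.76, −7.86 and −7.91 with CID661578, which overlapped as groups, although each CID661578 library was below the DMSO library of its number, in replicate 4 only slightly. TRNE over ND6, its neighbour on the same strand, was −4.01, −2.62, −5.28 and −4.49 in DMSO total RNA and −0.71, −0.33, −0.77 and −1.24 in CID661578 total RNA. The difference of the means was 3.34 in total and 3.99 in polysome RNA, and against CYTB on the other side 3.19 and 4.09, with no overlap in any of the 4. For TRNA the difference against ND2 was −2.19 and against COX1 −2.42 in total RNA, and −2.88 and −2.36 in polysome RNA, again without overlap. Over the sum of the mRNAs in place of a neighbour, TRNA stood apart from DMSO in polysome RNA but overlapped in total RNA. TRNL1 over ND1 differed by −0.086 in total and 0.29 in polysome RNA and overlapped in both, whereas against RNR2 on its other side it differed by −0.59 with overlap in total RNA and by −1.40 without overlap in polysome RNA.

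**Figure D4:**
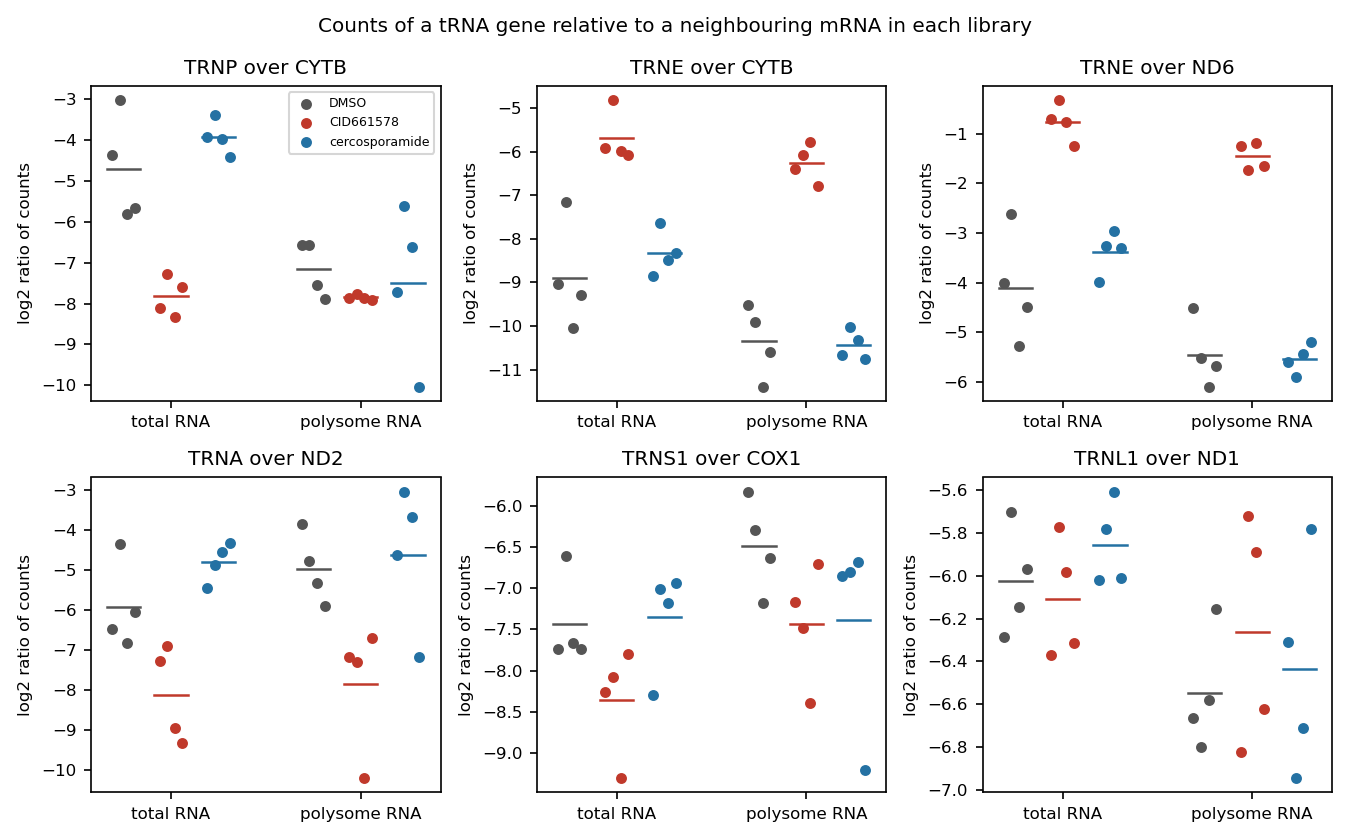
Log2 ratio of the counts of a tRNA gene to those of a neighbouring mRNA in each library, for 6 pairs; points are libraries and bars the means of 4. TRNE over ND6 is −1.24 to −0.33 in CID661578 total RNA and −5.28 to −2.62 in DMSO total RNA, while TRNL1 over ND1 overlaps between the treatments.

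Over the 17 pairs, the ratio with CID661578 did not overlap DMSO for 7 in total RNA (5 lower, 2 higher) and for 7 in polysome RNA (5 lower, 2 higher). Among the 78 pairs of mitochondrial mRNAs, taken in the same way, 7.69% did not overlap in total RNA and 47.4% in polysome RNA, so the polysome count is near this background. Taken within replicates, the ratio moved in the same direction in 4 of 4 replicates for 10 pairs in total RNA (8 lower, 2 higher), beside 16.7% of the mRNA pairs, and for 10 in polysome RNA (8 lower, 2 higher), beside 67.9%. The pairs that overlapped as groups but moved in the same direction in each replicate were TRNN over ND2 and TRNY over ND2 and COX1 in total RNA, and TRNY over ND2, TRNS1 over COX1 and TRNP over CYTB in polysome RNA. Without replicate 2, 11 pairs did not overlap in total RNA. With cercosporamide 0 of the 17 pairs stood apart from DMSO in total RNA and 0 in polysome RNA, beside 2.56% and 24.4% of the mRNA pairs, and leaving out replicate 2 gave 4 in total RNA, replicate 1 gave 2 in polysome RNA and replicate 3 gave 1. Without the plate of cercosporamide replicate 4 there were 0 in either fraction, and within replicates 0 pairs moved in the same direction in all 4, beside 10.3% of the mRNA pairs in total and 57.7% in polysome RNA. No share of the mRNA pairs was taken with a replicate or plate left out, and groups with fewer libraries overlap less readily. Counts of pairs in those settings therefore have no background. Pairs that share a gene are not independent of each other.

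With cercosporamide, all 9 were called lower in TE by edgeR. TRNP had 496, 660, 193 and 394 CPM in cercosporamide total RNA, which overlapped its DMSO libraries, and 13.9, 26.3, 14.0 and 1.26 CPM in polysome RNA, where the last value is 2 reads of the shallow library. Its TE change was −1.55 ± 0.35 SE, and −1.24 ± 0.33 without the plate of replicate 4, with a lower polysome to total ratio than any DMSO plate on 4 of 4 plates. TRNL1, the leucine tRNA gene beside RNR2, had a TE change of −1.72 ± 0.45, and −1.69 ± 0.48 without that plate, and its neighbours RNR2 and ND1 −2.09 ± 0.36 and −1.58 ± 0.34 with it. TRNS1 had −2.01 ± 0.49, which became −1.40 ± 0.40 without that plate, and its polysome to total ratio on the plate of replicate 1, 1.45 on the log2 scale, was within the DMSO plates. The share of all genes called lower in TE was 12.6%, and 0 of the 9 were called higher, beside 15.8%. At an unadjusted p under 0.05, edgeR gave 9 lower and 0 higher, beside 13.5% and 16.6% of all genes, and DESeq2 called 8 lower, beside 15.7% of all genes, and 0 higher, beside 14.4%, all with that plate. Without the plate of cercosporamide replicate 4, 7 of the 9 were called lower, beside 10.8% of all genes in that fit, and TRNA and TRNN, at −1.02 ± 0.47 and −0.85 ± 0.45, were not. Without replicate 1 or without replicate 2 of all treatments, 8 were called. Calls over all genes, in both directions, fell from 3422 of 12058 to 2427 of 12153 and 1816 of 12154. The median TE change of the 9 was −1.61 with that plate and −1.27 without it, beside −1.44 for the 13 mRNAs and −5.0e-04 for all genes with it.

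In polysome RNA with cercosporamide, 5 of the 9 were called lower, namely TRNL1, TRNM, TRNY, TRNS1 and TRNE, beside 16.0% of all genes tested, and 0 higher, beside 17.1%. At an unadjusted p under 0.05, edgeR gave 5 lower and 0 higher, beside 16.1% and 17.1% of all genes, and DESeq2 called 5 lower, beside 15.2% of all genes, and 0 higher, beside 18.1%. TRNS1 had 168, 142, 105 and 2 reads against 400, 473, 213 and 390 with DMSO, a log2 change of −1.65 ± 0.31 SE. Without the plate of replicate 4 it was −1.35 ± 0.25, and 4 of the 9 were called lower, beside 13% of all genes in that fit. Without replicate 1, 3 were called, without replicate 2, 6, and without the replicate block 3. Over all genes and both directions, these fits called 3295 of 12153, 2737 of 12154 and 1923 of 12058. In total RNA the 9 log2 changes were all above 0, from 0.057 for TRNL1 to 1.14 ± 0.32 SE for TRNA, but 0 were called higher and 0 lower by edgeR, beside 0.0498% and 0.0332% of all genes. At an unadjusted p under 0.05, edgeR gave 6 higher and 0 lower, beside 5.33% and 5.85% of all genes, and DESeq2 called 6 higher, beside 2.22% of all genes, and 0 lower, beside 1.06%, so that both the count and its background depend on the test. Whether the changes in total RNA differ between the compounds was not tested. The edgeR count rose to 3 without replicate 2 and to 5 with no filter on low counts. Calls over all genes, in both directions, rose as well, from 10 of 12058 to 145 of 12154 and 155 of 26284. TRNL1 (without replicate 1 or 2), TRNM (without replicate 2 or the plate of cercosporamide replicate 4) and TRNS1 (without replicate 4) fell below 0.

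The TE changes with the compounds were compared in the same fit, in which the DMSO libraries cancel. The TE change of TRNP was higher by 1.51 ± 0.42 SE (log2) with CID661578 than with cercosporamide. It was the 1 of 9 called higher, beside 7.93% of all genes, and 0 were called lower, beside 7.57%, so these counts are near the share over all genes. At an unadjusted p under 0.05, edgeR gave 1 higher and 0 lower, beside 10.9% and 11.1% of all genes, and DESeq2 called 1 higher, beside 10.8% of all genes, and 0 lower, beside 7.02%. Without the plate of cercosporamide replicate 4 the TRNP difference was 1.17 ± 0.38, and TRNS1 was called lower with −1.12 ± 0.43, beside 6.59% of all genes called higher and 6.10% lower in that fit. Over all plates TRNS1 had −0.45 ± 0.52, and without replicate 1 of all treatments its sign changed, to 0.044. Without replicate 1, 0 were called higher, without replicate 2, 2, and without replicate 4 of all treatments 1 was called lower. Over all genes and both directions, these fits called 583 of 12153, 391 of 12154 and 1623 of 13366. For the other 7 genes the differences ranged from −0.68 for TRNA to 0.85 for TRNQ with standard errors of 0.46 to 0.87, and the sign of TRNA, TRNN, TRNY and TRNE changed with the setting. On the mRNA side 5 of 13 were called lower, among them COX1, ND6 and CYTB with −0.92, −1.54 and −1.62.

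Just outside the rule on counts were TRNV, TRNC and TRNK, each at 0 in 1 library, and just inside it TRNL1, TRNM, TRNA, TRNY and TRNE, whose lowest count was 1. Of the 13 tRNA genes that did not meet the rule, 11 were at 0 in some CID661578 polysome library and 11 in the shallow cercosporamide library, and none was at 0 in a total RNA library. The rule therefore leaves out genes that were low in these groups. TRNC, for cysteine, lies between TRNN and TRNY and had 6.65, 52.2, 19.8 and 42.2 CPM in DMSO total RNA and 0.539, 5.08, 0.164 and 1.06 CPM in CID661578 total RNA. With no filter on low counts its log2 change was −4.27 ± 0.33 SE, larger than those of TRNA, TRNN and TRNY beside it. TRNC and TRNT were chosen after their values were seen. TRNT, for threonine, lies between CYTB and TRNP and had −3.67 ± 0.47, close to TRNP. In that fit 6 of the 13 were called lower in total RNA with CID661578 (TRNF, TRNI, TRNC, TRNR, TRNH and TRNT), beside 0.274% of all genes in that fit, and 0 higher, beside 0.514%. In polysome RNA 9 were called lower, beside 1.85%, and 0 higher, beside 3.29%.

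MIR12136, annotated on chromosome 1 as a miRNA gene at chr1:632615-632685 (minus strand, GRCh38.p14, RefSeq), holds the whole TRNS1 sequence, in capitals here.
MIR12136 hairpin: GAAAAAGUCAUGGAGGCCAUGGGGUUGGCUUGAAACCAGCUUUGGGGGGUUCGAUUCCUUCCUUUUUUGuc
It had 4065 reads in all against 4117 for TRNS1, and TRNS1 minus MIR12136 was −1 to 16 reads per library. By the default settings of featureCounts every alignment of a read was counted, so the same reads can stand under both names, and no read can be assigned to either. Identical nuclear copies of the full gene were found in hg38 for 5 of the 9, namely TRNQ, TRNA (2 copies), TRNN, TRNS1 and TRNE. No nuclear copy with at least 95% identity was found for TRNP or TRNL1. The 459 nuclear copies of mitochondrial rRNAs and mRNAs in the table took 0.428% ± 0.066 of the reads in DMSO and 0.339% ± 0.122 in CID661578 total RNA, and 0.200% ± 0.032 in DMSO and 0.0355% ± 0.0043 in CID661578 polysome RNA (SD, n = 4). Of these, 10 had a count in every library, and 7 of the 10 were called lower in TE with CID661578.

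The nuclear genes that process and maintain mitochondrial RNA did not pass the test with CID661578 in total RNA or TE. Of 39 such genes 38 were tested (PTCD1 had a 0 in some library), and 0 were called in either comparison by edgeR or by DESeq2, with 4 lower and 0 higher in total RNA (beside 3.75% and 3.45% of all genes) and 0 lower and 7 higher in TE (beside 3.95% and 4.92%) at an unadjusted p under 0.05. The tRNA end enzymes TRMT10C, HSD17B10, PRORP, ELAC2 and TRNT1 had log2 changes of −0.68, 0.030, −0.17, −0.27 and −0.11 in total RNA. In polysome RNA with CID661578, FASTKD5, which acts on precursors at junctions that have no tRNA, was the 1 of 38 called lower, not above the 3.93% of all genes, and 0 were called higher by edgeR, beside 6.34%. Without adjustment, at p under 0.05, 1 was lower and 5 higher, with no share of all genes to set beside them. DESeq2 called 1 lower, beside 629 of all 12058 genes, and 2 higher, beside 865. With cercosporamide 17 of the 38 were called higher, beside 15.8% of all genes, and 2 (SLIRP and PUS1) lower, beside 12.6%, in TE. Without the plate of cercosporamide replicate 4, 17 were called higher, beside 13.4% of all genes, and 1 lower, beside 10.8%. Among the 17 called higher with that plate, TRMT10C had 1.22 ± 0.24 SE and TRNT1 0.87 ± 0.34. Others were the transcription factors TFAM, TFB2M, TEFM and MTERF1, the stability factors LRPPRC, MTPAP and PNPT1, and FASTKD1, FASTKD2 and FASTKD5. The rest were the modifying enzymes MTO1, TRIT1, NSUN3, NSUN2 and TRMT5. The list was chosen with earlier results of these data known, so its counts are a description and no p-value is given for a single gene. In the test of the difference between the compounds 10 of the 38 were lower with CID661578, TRMT10C among them, beside 7.57% of all genes, and 2 higher, beside 7.93%. Without that plate 6 were lower, beside 6.10% of all genes, and 1 higher, beside 6.59%. The median TE change of the 38 with cercosporamide was 0.59, opposite in sign to that of the 9 tRNA genes. Among 528 nuclear tRNA genes, 1 had a count in every library. Together they took 0.00964% ± 0.00456 of the reads in DMSO total RNA and 0.0222% ± 0.0134 with CID661578 (SD, n = 4), which overlapped as groups and was higher with CID661578 in 4 of 4 replicates.

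The genes most like the mean log2 CPM of the 9 over the 24 libraries were MTCO1P2, MTND6P4 and MTCO2P2, which are nuclear copies, then ND3 and MTND1P23, with Pearson correlations of 0.97, 0.94, 0.92, 0.92 and 0.91. Outside mitochondrial genes and their copies, HOXC10, DNAJC4, R3HCC1, LOC100506100 and SYS1 were highest, with 0.84, 0.84, 0.83, 0.82 and 0.82. The libraries share treatments, fractions and plates, so these are descriptions. Among the 9, the lowest correlation was that of TRNE with TRNS1, 0.047.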

How the data were processed

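The authors deposited raw counts per gene. As their methods state, adapters and rRNA reads were removed with BBDuk, paired 50-base reads were aligned to hg38 with HISAT2 and counted with featureCounts at default settings on RefSeq genes. The default of featureCounts is to count without strand. Per the labels, FastQC 0.11.8 was among the tools. All 24 libraries were used and grouped by treatment and fraction as labelled; replicates are separate plates per the labels. CPM used library totals. Genes with a 0 in any library were removed (12058 left). Changes were tested with edgeR 4.0.16 (R 4.3.3; TMM, quasi-likelihood F test, Benjamini-Hochberg over all genes) with replicate as a block; TE was the interaction of fraction and treatment over 24 libraries, with a term for each plate. The paper assessed translational efficiency with anota2seq, so the TE here is a different measure from the paper's. Standard errors were derived from the F statistic. Called means adjusted p under 0.15 and a change over 1.2-fold. Alternatives were DESeq2 1.42.0, its size factors, TMM without mitochondrial genes, other filters, adjusted p under 0.05, no block, and libraries left out. The code was tested on simulated data. Positions come from GENCODE on hg38, the build the authors used; nuclear copies were found with BLAST (word size 11; at most 2 bases missing). The named genes are the 9 genes and their neighbours, other mitochondrial genes, the genes of mitochondrial RNA processing that were called, and the 5 most alike; others are named as chosen after their values were seen. Members and lists were chosen with earlier results of these data known. No 2 libraries were identical.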

Additional observations from a re-analysis of the deposited data

Results flagged for a closer look

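Among 54 groups of 4 libraries (9 genes in 6 groups), 1 had a library far from its others. TRNN had 2.89 CPM in CID661578 polysome replicate 3, against 1.40 to 1.65 CPM in the other 3, a gap of 0.831 of the whole range. Chance alone sets apart about 1 in 20 such groups. The library was still below all 4 DMSO polysome libraries. The log2 change of TRNN in polysome RNA was −3.63 with replicate 3 and −4.18 without it, and it was called in both.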

How the results depend on the processing

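Of 828 single-gene log2 changes under the alternatives, 736 kept their direction and side of the threshold, 43 lost a call, 32 gained a call and 17 changed sign. Where values changed, the cause was not tested. In TE with CID661578, 2 of 9 were called lower, against 1 at adjusted p under 0.05, 1 by DESeq2, 5 with no filter and 0 to 3 leaving out a replicate. In total RNA with cercosporamide, 0 were called higher, against 6 by DESeq2, 5 with no filter and 0 to 3 leaving out a replicate. Calls over all genes in that comparison numbered 10, against 396 by DESeq2, 155 with no filter and 1 to 145 leaving out a replicate. In polysome RNA, 1 was called higher with CID661578, against 0 at adjusted p under 0.05 and 0 to 1 leaving out a replicate. With cercosporamide 5 were called lower there, against 3 at adjusted p under 0.05 and 3 to 6 leaving out a replicate. Calls over all genes leaving out a replicate were 440 to 1063 with CID661578 and 2737 to 3467 with cercosporamide. In the difference between the compounds, 0 to 1 were lower and 0 to 2 higher leaving out a replicate, and 2 higher with no filter. Calls over all genes there were 391 to 1687 leaving out a replicate and 1284 with no filter. Of the ratio pairs, 7 did not overlap in total RNA with CID661578, against 7 to 11 leaving out a replicate. Over the sum of the mRNAs 3 did not, where a gene counts once for each neighbour and the distinct genes were 2 of 9 (TRNE and TRNP). In polysome RNA with CID661578 the distinct genes over that sum were 5 of 9 (TRNL1, TRNM, TRNA, TRNE and TRNP). Of these, TRNM and TRNP overlapped against their neighbours. No share of other genes over that sum was taken, so these counts have no background and are not a result about the tRNA genes. Among pairs of mRNAs in polysome RNA with CID661578, 47.4% did not overlap. With cercosporamide there were 0 to 4 pairs in total and 0 to 2 in polysome RNA leaving out a replicate. No share of the mRNA pairs was taken with a replicate left out. The counts of ratios within replicates and of ratios without the plate of cercosporamide replicate 4 were chosen after seeing the data.

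The replicate block follows the study's methods. Of 16 correlations between the deviations of a treated library and of the DMSO library of its number, 13 were over 0.1 (−0.021 to 0.61), and 12 of the 16 treated libraries correlated best with the DMSO library of their own number. Without the block, 0 were called lower in TE with CID661578, 1 lower in total RNA with CID661578 in place of 4, 0 higher in polysome RNA with CID661578 and 3 lower in polysome RNA with cercosporamide. TRNY turned to −0.0072 in the difference between the compounds. Over all genes, calls went from 57 to 5 (total, CID661578), 10 to 0 (total, cercosporamide), 1239 to 71 (polysome, CID661578) and 3989 to 1923 (polysome, cercosporamide). In TE with CID661578 they went from 25 to 21.

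Log2 changes that changed sign ran, leaving out a replicate, from −0.30 to 0.24 for TRNP in TE with CID661578, and in total RNA with cercosporamide from −0.22 to 0.42 for TRNL1, −0.082 to 0.43 for TRNM and −0.15 to 0.56 for TRNS1. In the difference between the compounds they ran from −2.02 to 0.24 for TRNA, −1.02 to 0.28 for TRNN, −0.66 to 0.87 for TRNY, −1.12 to 0.044 for TRNS1 and −0.18 to 0.074 for TRNE, which was 0.018 by DESeq2 and 0.0017 with its size factors.

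No scaling moved the median of all genes by over 0.1. With DESeq2's size factors, calls over all genes in total RNA with cercosporamide went from 4 lower and 6 higher to 11 and 36, with TMM without mitochondrial genes to 11 and 35, and by DESeq2 to 128 and 268. In TE with CID661578 all calls numbered 25, against 54 by DESeq2, 102 with no filter and 12 to 341 leaving out a replicate, and in total RNA 57, against 161, 207 and 12 to 81. Counts of 1 to 8 reads in the shallow library, unstranded counting and nuclear copies limit what these values resolve.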
